A study of Mus musculus with 9 samples.

Results

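The transcripts made from the mitochondrial genome, and 20 nuclear genes whose products copy that genome, transcribe it or handle its RNA, were followed in HL-1 cells after 24 h with 5 µM ivermectin, 10 µM importazole or vehicle (0.1% DMSO). HL-1 is a mouse atrial cardiomyocyte line that descends from a heart tumour of mice carrying a viral large T antigen, and it keeps dividing in culture. All groups were grown in Claycomb medium, and 3 poly(A)-selected RNA libraries were sequenced per group. Ivermectin is an antiparasitic drug used in the laboratory to inhibit importin α/β, the receptor that carries proteins into the nucleus, and importazole is an inhibitor of importin-β. Whether the compound groups also received DMSO, and whether the libraries of a group came from separate cultures, is not stated in the labels. The p-values therefore cover the spread between these libraries, possibly a technical one. The compounds were given at different doses and were compared at those doses only.

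Every gene symbol beginning with mt- (37 symbols) and 20 named nuclear genes made up the 57 symbols, and 43 of them reached 1 FPKM (fragments scaled to transcript length and to the mapped fragments of the library) in at least 3 of the 9 libraries. Across the whole series 11337 of 25175 symbols met the same limit. The 43 genes were all 13 mitochondrial mRNAs, both mitochondrial rRNAs, 8 of the 22 mitochondrial tRNAs and all 20 nuclear factors. The 14 tRNAs below the limit were not tested. Just inside the limit, mt-Tv was listed at 11.9 FPKM in ivermectin 2, 9.12 in importazole 1 and 10.9 in importazole 2, and at 0 in the other libraries. Just outside it, mt-Ta was listed at 9.12 FPKM in importazole 1 and 1.998 in vehicle 2, and at 0 elsewhere.

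Mammalian mitochondrial DNA is a small circle that encodes core subunits of respiratory complexes I, III and IV and of ATP synthase, together with the rRNAs and tRNAs needed to translate them. Polrmt, the mitochondrial RNA polymerase, works with the DNA-packing protein Tfam and with Tfb2m to transcribe each strand as a long precursor, from which the tRNAs are cut out so that the mRNAs and rRNAs between them are released. Mtpap then adds poly(A) tails, and the RNA-binding partners Lrpprc and Slirp hold mature mRNAs stable. Heart muscle is rich in mitochondria, and mitochondrial mRNAs are among its most abundant transcripts.

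The annotated ends of 7 mRNA genes are shown because they differ in a way that the poly(A) tail completes. Some genes end in a whole stop codon and others in its first base alone. Each is the last 30 bases, 5′ to 3′, of the plus-strand transcript in GENCODE M21 (GRCm38), with the last codon or its remaining base in capitals.
mt-Cytb, chrM:15259-15288: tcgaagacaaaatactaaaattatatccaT
mt-Nd4, chrM:11515-11544: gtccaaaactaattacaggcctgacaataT
mt-Co3, chrM:9361-9390: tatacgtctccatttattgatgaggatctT
mt-Atp6, chrM:8578-8607: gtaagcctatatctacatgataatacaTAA
mt-Nd3, chrM:9777-9806: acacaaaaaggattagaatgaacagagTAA
mt-Co1, chrM:6843-6872: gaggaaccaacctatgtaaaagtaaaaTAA
mt-Nd5, chrM:13536-13565: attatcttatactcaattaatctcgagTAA
Of the 13 mRNA genes as annotated, mt-Cytb, mt-Nd4 and mt-Co3 end in a lone T, and the other 10 end in TAA or TAG. Neighbouring genes also share bases. The 43 bases that mt-Atp8 and mt-Atp6 have in common, with the start codon of mt-Atp6 in capitals, are printed here because reads from them belong to both genes.
mt-Atp8 and mt-Atp6, chrM:7927-7969: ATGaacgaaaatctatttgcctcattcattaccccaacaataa
The next longest overlap on one strand was of 7 bases between mt-Nd4l and mt-Nd4, and mt-Nd5 shared 14 bases with mt-Nd6 on the opposite strand. On the same strand, mt-Nd1 and mt-Nd2 share their last 2 bases with the tRNA genes mt-Ti and mt-Tw. mt-Atp6 shares its last base with mt-Co3. The ends given are therefore those of annotated genes, and where the mRNAs themselves end was not measured. In mammalian mitochondria mt-Atp8 and mt-Atp6 are carried on a single mRNA, as are mt-Nd4l and mt-Nd4. Values within these pairs are therefore not independent, and counts of mRNAs here are counts of genes. Of the 13 mRNAs 9 have a copy of at least 100 bases and 95% identity among the annotated nuclear transcripts. None of the 11 such copies is listed in the deposited tables, and 4 mRNAs, mt-Cytb, mt-Nd1, mt-Atp8 and mt-Nd6, have none.

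No read numbers could be worked back from the FPKM values, so depth is unknown. From the commonest ratio between libraries among low genes, depth relative to vehicle 1 was about 0.750 to 1.2 in ivermectin libraries, 1.036 to 1.238 in importazole libraries and 0.923 to 1.129 in the other vehicle libraries. Yam1, an abundant nuclear transcript, was listed at 0 in ivermectin 3 and vehicle 2 and made up between 5.86% and 10.4% of all FPKM elsewhere. Without those 2 libraries 10 encoded genes were lower with importazole, in place of the 7 given below, with mt-Co3, mt-Nd1 and mt-Nd3 as the additions. Then 9 differed between ivermectin and importazole, in place of 13, as mt-Co1, mt-Nd4l, mt-Rnr1 and mt-Tm no longer passed. The ivermectin calls of mt-Nd3, Lrpprc and Tefm, and those of Mrpl13 and Ndufa10 between the compounds, also ended. Summed FPKM of 8 atrial cardiomyocyte markers lay at 4593 to 5003 in ivermectin libraries, 5231 to 5618 in importazole libraries and 5617 to 6410 in vehicle libraries. Each of the 8 was at 8.55 FPKM or more in every library, and they did not move alike, with 1 of them higher in every importazole library than in any vehicle library. The sum of 5 fibroblast markers was 36.0 to 38.1 FPKM with ivermectin, 33.6 to 36.4 with importazole and 23.1 to 26.1 with vehicle, nearly all of it Ddr2. Of the other fibroblast markers Col1a1 reached at most 1.24 FPKM in any library and Col1a2, Pdgfra and Thy1 at most 0.263, and Thy1 was listed at 0 in ivermectin 1. Endothelial markers summed to 8.93 to 9.69 FPKM with ivermectin, 9.67 to 11.3 with importazole and 10.2 to 10.7 with vehicle, and macrophage markers to at most 2.23 FPKM in any library. Of the smooth muscle markers nearly all FPKM was Acta2, at 1020 to 1145 with ivermectin, 1021 to 1123 with importazole and 1175 to 1243 with vehicle, and Myh11 reached at most 0.119 FPKM. The part of these shifts in the results below was not tested. In RNA from whole cultures, fewer mitochondrial genomes per cell and less RNA per genome cannot be told apart. The mRNA values are also only of RNA that passed poly(A) selection, and tailing was not measured.

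In the importazole cells, 7 of the 13 mitochondrial mRNAs fell. Transcripts for both ATP synthase subunits, for cytochrome b, for 1 of 3 complex IV subunits and for 3 of 7 complex I subunits fell, with log2 changes of -0.45 to -0.71. Both genes of each pair carried on a single mRNA are among these 7, and also among the 11 of the direct comparison below. In the ivermectin cells only mt-Nd3, a complex I subunit, passed the test, and it was higher. With importazole the other 6 of the 13 did not pass, and 0.565% of all genes tested fell with importazole. With ivermectin 1 of the 13 rose and 12 did not pass, against 1.79% of all genes that rose and 2.52% that fell. None of the 13 rose with importazole, against 1.69% of all genes. The median log2 change of the 13 mRNAs was 0.06 with ivermectin and -0.45 with importazole, against 0.01 and 0.04 over all genes in the same comparisons. Both comparisons share the 3 vehicle libraries. Over all genes, 192 were higher and 64 lower with importazole. These counts were 159 and 117 under quantile normalization, 159 and 118 under median-of-ratios scaling and 158 and 132 with an equal nuclear sum, under which 9, 9 and 10 encoded genes fell. Directly compared, ivermectin cells had higher levels than importazole cells for 11 of the 13 mRNAs, against 0.714% of all genes tested, with a median log2 difference of 0.52 against -0.03 over all genes. The counts over all genes there were 81 higher and 307 lower, and 191 and 274, 161 and 280, and 191 and 254 under the same 3 scalings.

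**Figure D1:**
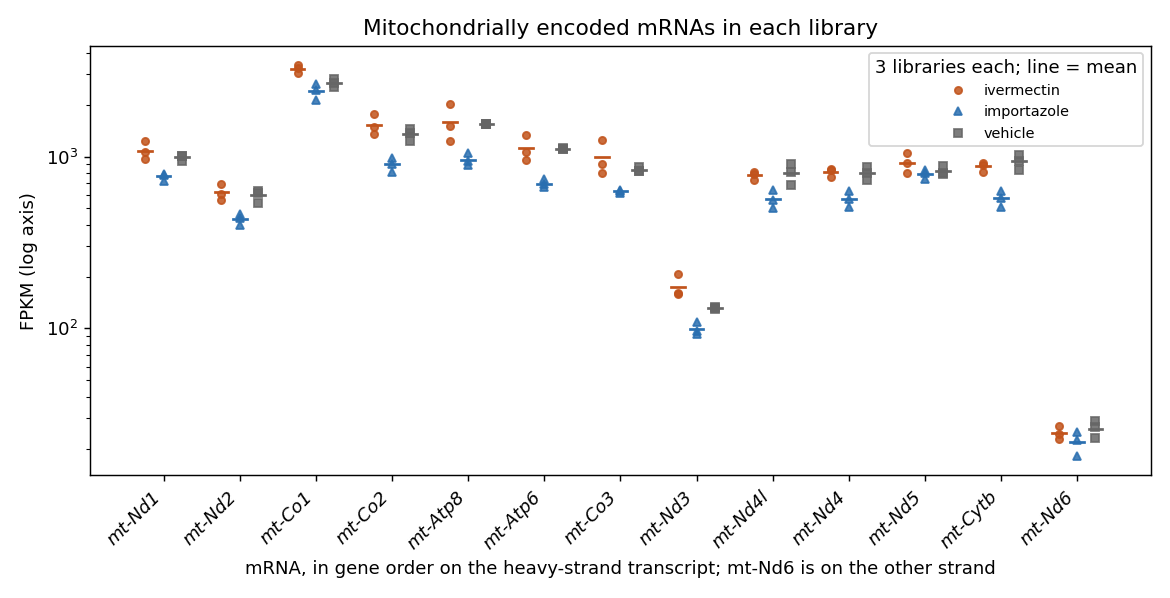
FPKM on a log axis of each of the 13 mitochondrial mRNAs, in gene order, for 3 ivermectin, 3 importazole and 3 vehicle libraries (points) with the group mean (line). Importazole points lie lowest for most mRNAs, while those of mt-Co1, mt-Nd5 and mt-Nd6 overlap with vehicle.

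Transcripts of both ATP synthase subunits fell with importazole, and of these calls only that of mt-Atp6 held under all alternatives. Atp6 forms part of the proton channel of the enzyme, and its mRNA (mt-Atp6, GRCm38 chromosome M, 7927 to 8607) had 959.6, 1058 and 1335 FPKM in ivermectin libraries and 663, 689.6 and 735 FPKM in importazole libraries, against 1099, 1102 and 1127 FPKM in vehicle libraries. All 3 importazole libraries lay below all vehicle libraries, while ivermectin libraries lay on both sides of them. The log2 change with importazole was -0.67 ± 0.10 (SE, n = 3; limma adjusted p = 0.00522). With ivermectin it was -0.00 with a 95% interval of -0.23 to 0.22, and the direct comparison of ivermectin with importazole gave 0.67 (limma adjusted p = 0.00446). The small partner subunit mt-Atp8 had 1233, 1506 and 2026 FPKM in ivermectin libraries and 1044, 888 and 939 FPKM in importazole libraries, against 1541.0, 1540.4 and 1541.6 FPKM in vehicle libraries. Vehicle values were almost equal and ivermectin values spread on both sides of them. Its log2 change with importazole was -0.69 (limma adjusted p = 0.0320), a call that ended when any vehicle or importazole library, or ivermectin 2, was omitted (adjusted p up to 0.128). The difference between ivermectin and importazole was 0.70 (limma adjusted p = 0.0226; lost without ivermectin 2 or importazole 2 or 3).

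Cytochrome b, the only complex III subunit encoded in the organelle, had the largest log2 change of the 13 with importazole. Its mRNA mt-Cytb (chromosome M, 14145 to 15288), which lacks a full stop codon in the sequence above, had 816, 897 and 916 FPKM in ivermectin libraries and 511, 577 and 633 FPKM in importazole libraries, against 1027, 835 and 948 FPKM in vehicle libraries. The importazole libraries were the lowest 3 of the 9, and ivermectin and vehicle overlapped. The log2 change was -0.71 ± 0.09 with importazole (SE, n = 3; limma adjusted p = 0.00255) and -0.09 with ivermectin, with a 95% interval of -0.30 to 0.12. Between ivermectin and importazole the log2 difference was 0.61 (limma adjusted p = 0.00482). The importazole calls of mt-Cytb and mt-Atp6 held under all 21 alternatives tried, with adjusted p up to 0.0166 and 0.0361.

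Of the complex IV subunits, which pass electrons to oxygen, mt-Co2 fell with importazole, and mt-Co1 and mt-Co3 did not pass against vehicle. mt-Co2, the subunit that receives electrons from cytochrome c, had 1349, 1492 and 1758 FPKM in ivermectin libraries and 810.4, 909.9 and 986 FPKM in importazole libraries, against 1452, 1224 and 1369 FPKM in vehicle libraries. Importazole libraries were again the lowest 3, and the log2 change was -0.58 (limma adjusted p = 0.0169). That call ended without vehicle 1 or 3 or importazole 1 or 2, with adjusted p up to 0.0848. The difference between ivermectin and importazole was 0.76 (limma adjusted p = 0.00247) and held under all alternatives. The catalytic subunit mt-Co1, the most abundant of the 13 per length, had 3051, 3386 and 3258 FPKM in ivermectin libraries and 2128, 2443 and 2629 FPKM in importazole libraries, against 2816, 2543 and 2673 FPKM in vehicle libraries. Ivermectin libraries all lay above the vehicle ones and importazole libraries overlapped with them. Its log2 change was 0.27 with ivermectin (limma adjusted p = 0.0967) and -0.16 with importazole (limma adjusted p = 0.368), neither past the threshold of 0.05. The log2 difference between ivermectin and importazole was 0.43 (limma adjusted p = 0.0166), a call that ended without ivermectin 2 or importazole 1 or 2, and under quantile normalization, where it was 1.26 (adjusted p = 0.390). mt-Co3 had 803, 909 and 1254 FPKM in ivermectin libraries and 639.8, 629 and 613 FPKM in importazole libraries, against 822, 821 and 865 FPKM in vehicle libraries. The importazole values did not overlap with vehicle, but the log2 change of -0.41 did not pass (limma adjusted p = 0.137; it passed in 4 of 21 alternatives, with adjusted p down to 0.00346), while the difference between ivermectin and importazole did, at 0.63 (limma adjusted p = 0.0232; lost without ivermectin 2 or any importazole library).

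Complex I takes electrons from NADH, and 7 of its membrane subunits are encoded in the organelle. mt-Nd4, a proton-pumping subunit, had 761, 835 and 845 FPKM in ivermectin libraries and 508, 566 and 630.5 FPKM in importazole libraries, against 871, 726 and 807 FPKM in vehicle libraries. mt-Nd4l, encoded on the same mRNA, had 728, 809.5 and 792 FPKM in ivermectin libraries and 500.5, 558 and 636 FPKM in importazole libraries, against 902, 687 and 813 FPKM in vehicle libraries. mt-Nd2, another pumping subunit, had 560.0, 607 and 688 FPKM in ivermectin libraries and 399, 442 and 464 FPKM in importazole libraries, against 615, 536 and 630.0 FPKM in vehicle libraries. In all 3 genes the importazole libraries were the lowest 3, and ivermectin overlapped with vehicle. Log2 changes with importazole of mt-Nd4, mt-Nd4l and mt-Nd2 were -0.50, -0.50 and -0.45, with limma adjusted p of 0.0169, 0.0407 and 0.0323. Each of these calls ended without vehicle 1, vehicle 3, importazole 1 or importazole 2, those of mt-Nd4l and mt-Nd2 also without ivermectin 2, and that of mt-Nd2 without importazole 3, with adjusted p up to 0.159. Ivermectin libraries exceeded importazole ones by 0.52, 0.46 and 0.50 log2 units for mt-Nd4, mt-Nd4l and mt-Nd2 (limma adjusted p = 0.0108, 0.0435 and 0.0138). Without importazole 2 none of these differences passed, without importazole 1 only that of mt-Nd4 did, and that of mt-Nd4l also ended without vehicle 3 or any ivermectin library. mt-Nd1, at the membrane base of the enzyme, had 962, 1057 and 1231 FPKM in ivermectin libraries and 725, 776 and 795 FPKM in importazole libraries, against 1006, 943.5 and 1013 FPKM in vehicle libraries. It lay lowest with importazole without passing (log2 change -0.37, limma adjusted p = 0.0535, though it passed in 8 of 21 alternatives, all 3 scalings among them, with adjusted p down to 0.00183), and its difference between ivermectin and importazole was 0.49 (limma adjusted p = 0.00980; 0.0504 without importazole 1).

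mt-Nd3, a small complex I subunit (chromosome M, 9459 to 9806), was the only mRNA called with ivermectin. It had 158, 159.8 and 207 FPKM in ivermectin libraries and 108, 92.7 and 97.1 FPKM in importazole libraries, against 129, 132 and 133 FPKM in vehicle libraries. The 3 groups did not overlap, with ivermectin highest and importazole lowest. The log2 change with ivermectin was 0.40 ± 0.10 (SE, n = 3; limma adjusted p = 0.0494), close to the threshold, and the call ended in 16 of 21 alternatives, among them the omission of any library (adjusted p 0.0510 to 0.131). With importazole the log2 change was -0.40 (limma adjusted p = 0.0683), which passed in 7 of 21 alternatives, the 3 scalings among them (adjusted p down to 0.00705). Ivermectin and importazole differed by 0.80 ± 0.10 log2 units, the largest difference among the 13 mRNAs (limma adjusted p = 0.00103), a call that held under all alternatives tried.

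The other complex I mRNAs, mt-Nd5 and mt-Nd6, passed in no comparison. mt-Nd5 averaged 923 ± 124 FPKM in ivermectin libraries and 791 ± 50.0 FPKM in importazole libraries, against 824 ± 46.2 FPKM in vehicle libraries (SD, n = 3 each). Its log2 change with importazole was -0.06, with a 95% interval of -0.27 to 0.15 (limma adjusted p = 0.810). mt-Nd6, the only mRNA on the other strand, averaged 24.7 ± 2.29 FPKM in ivermectin libraries and 21.8 ± 3.39 FPKM in importazole libraries, against 26.1 ± 2.94 FPKM in vehicle libraries (SD, n = 3 each). Its groups overlapped, and the log2 change with importazole was -0.26 (limma adjusted p = 0.327). The mRNA of mt-Nd6 carries no stable poly(A) tail in human mitochondria, and these libraries were poly(A)-selected.

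**Figure D2:**
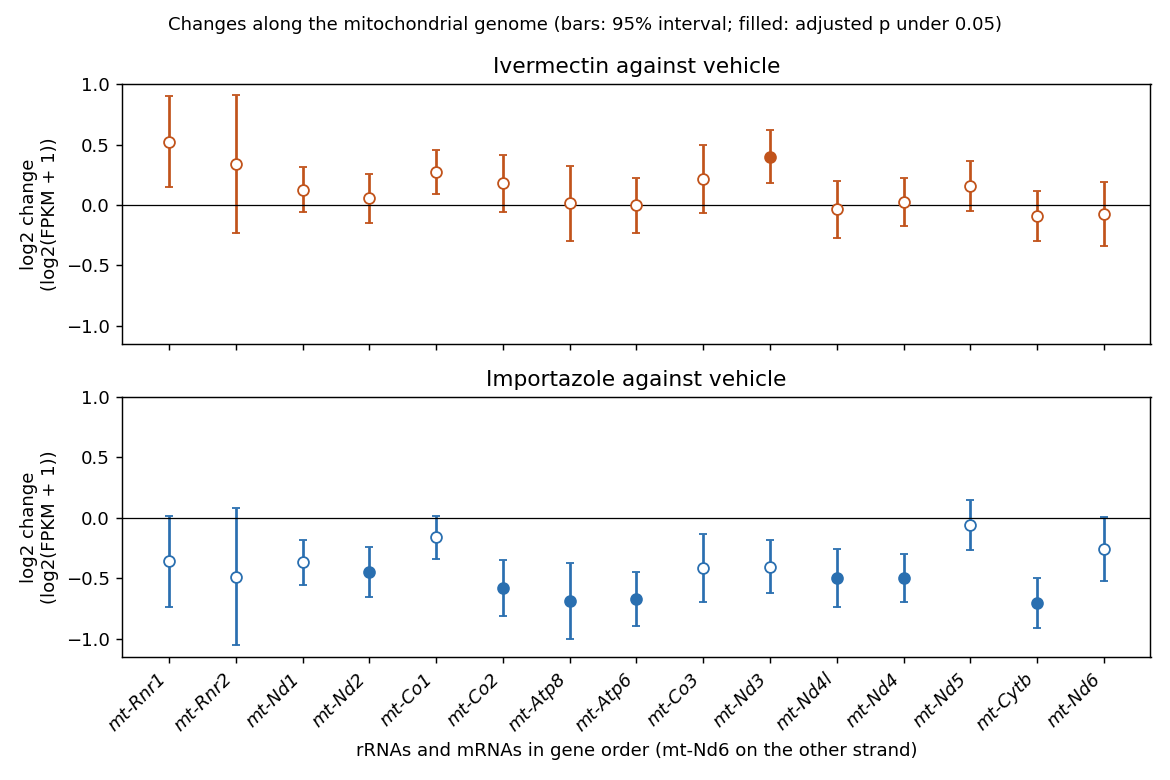
Log2 change, on the log2(FPKM + 1) scale, of 2 rRNAs and 13 mRNAs in gene order for ivermectin (upper panel) and importazole (lower panel) against vehicle. Bars are 95% intervals from limma and filled points have an adjusted p under 0.05. The importazole points lie below 0, least so at mt-Nd5 (-0.06) and mt-Co1 (-0.16). The ivermectin points of the mRNAs lie between -0.09 and 0.40, with mt-Nd3 (0.40) filled. Those of mt-Rnr1 and mt-Rnr2 lie at 0.52 and 0.34 and are not filled.

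Ratios of 2 mRNAs within a library do not depend on how the library was scaled. Those given here were chosen after their values were seen and carry no test. With importazole mt-Cytb had the largest log2 change of the 13 (-0.71), and mt-Nd5 and mt-Co1 the smallest (-0.06 and -0.16). Higher ratios of mt-Nd5 and mt-Co1 to mt-Cytb with importazole than with vehicle thus follow from that choice. The ratio of mt-Co1 to mt-Cytb FPKM was 3.74, 3.77 and 3.56 in ivermectin libraries and 4.16, 4.23 and 4.15 in importazole libraries, against 2.74, 3.05 and 2.82 in vehicle libraries. The ratio of mt-Nd5 to mt-Cytb was 0.984, 1.018 and 1.148 in ivermectin libraries and 1.440, 1.392 and 1.318 in importazole libraries, against 0.781, 0.951 and 0.926 in vehicle libraries. Both ratios were highest in importazole libraries and lowest in vehicle libraries, with no overlap between the 3 groups. mt-Nd3 stood at 19.4%, 17.8% and 22.6% of mt-Cytb in ivermectin libraries and 21.2%, 16.1% and 15.3% in importazole libraries, against 12.6%, 15.8% and 14.1% in vehicle libraries. Here ivermectin lay above vehicle, and importazole overlapped with both. Over the 13 mRNAs, Spearman's rho of the log2 change with importazole was -0.07 with the start position, 0 with GC content and 0.40 with length, as a description over genes that share precursors and libraries.

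**Figure D3:**
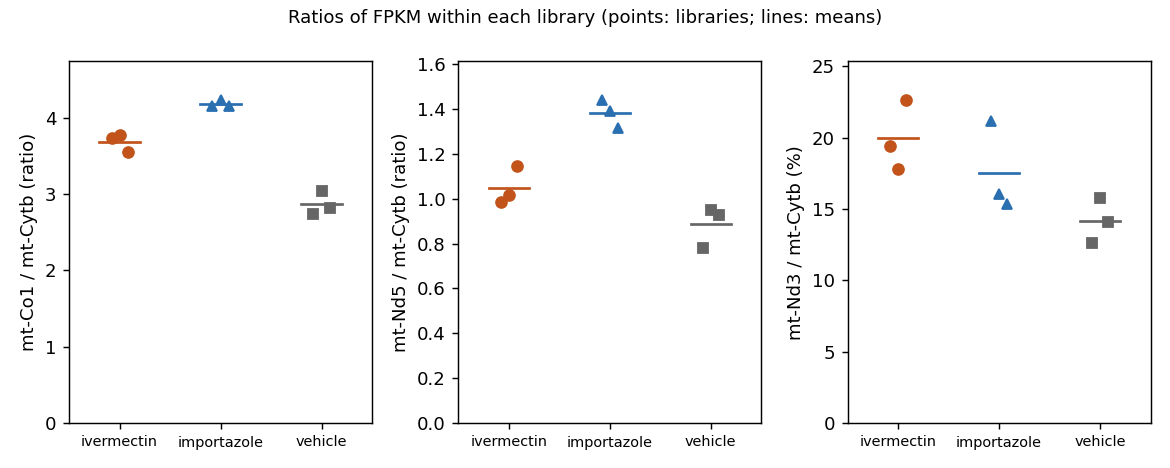
Ratios of FPKM within each library for mt-Co1 and mt-Nd5 over mt-Cytb and, in percent, mt-Nd3 over mt-Cytb, by group (points are libraries, lines are means of 3). For mt-Co1 the importazole points sit at 4.15 to 4.23, above ivermectin at 3.56 to 3.77 and vehicle at 2.74 to 3.05.

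Of the 2 mitochondrial rRNAs, mt-Rnr1 was higher with ivermectin than with importazole, and mt-Rnr2 passed in no comparison. mt-Rnr1, the rRNA of the small ribosomal subunit (chromosome M, 70 to 1024), had 1194, 1408 and 1388 FPKM in ivermectin libraries and 894, 594 and 699.6 FPKM in importazole libraries, against 769, 853 and 1197 FPKM in vehicle libraries. Ivermectin and importazole did not overlap, and vehicle 3 lay above the other vehicle libraries. The log2 difference between ivermectin and importazole was 0.88 ± 0.17 (SE, n = 3; limma adjusted p = 0.0185), lost without ivermectin 2 or 3 or importazole 2 or 3, with adjusted p up to 0.0881 over all alternatives. Against vehicle the log2 change was 0.52 with ivermectin (limma adjusted p = 0.116) and -0.36 with importazole (limma adjusted p = 0.337). The ivermectin change passed in 1 of 21 alternatives, with limma adjusted p down to 0.0340. mt-Rnr2, the large-subunit rRNA, averaged 1334 ± 383 FPKM in ivermectin libraries and 740.0 ± 158 FPKM in importazole libraries, against 1048 ± 294 FPKM in vehicle libraries (SD, n = 3 each). Its log2 difference between ivermectin and importazole of 0.83 (limma adjusted p = 0.116) passed in 1 of 21 alternatives (adjusted p = 0.0338). As rRNA was measured after poly(A) selection, these values are of the rRNA that passed it. Summed rRNA stood at 17.1% to 22.1% of summed mRNA in ivermectin libraries and 12.4% to 20.3% in importazole libraries, against 13.1% to 20.1% in vehicle libraries, which overlapped.

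Mitochondrial tRNAs were sparse, and between 7 and 11 of the 22 had a value above 0 in a library. Of the 8 tested, 1 passed in 1 comparison. mt-Tm, the methionine tRNA (chromosome M, 3845 to 3913), had 15.05, 11.9 and 9.40 FPKM in ivermectin libraries and 36.5, 21.8 and 31.9 FPKM in importazole libraries, against 28.2, 15.0 and 12.2 FPKM in vehicle libraries. Ivermectin lay below importazole with no overlap, the opposite order to the mRNAs, and 2.71% of all genes tested were called in that direction. The log2 difference was -1.24 ± 0.28 (SE, n = 3; limma adjusted p = 0.0424), lost in 13 of 21 alternatives. These include all 3 scalings, plain limma, the omission of both libraries with Yam1 at 0, and that of vehicle 2, any ivermectin library or importazole 1 or 3. Against vehicle mt-Tm did not pass with importazole (log2 change 0.73, limma adjusted p = 0.244), though it did in 1 of 21 alternatives (adjusted p = 0.0433). The most abundant, the serine tRNA mt-Ts1, averaged 242 ± 55.0 FPKM in ivermectin libraries and 143 ± 32.0 FPKM in importazole libraries, against 176 ± 52.9 FPKM in vehicle libraries (SD, n = 3 each), and did not pass. It shares 3 bases with the annotated end of mt-Co1 on the other strand. Whether strand was used in the quantification is not known, so the values of mt-Ts1 are uncertain. A fragment adds more FPKM to a gene as short as a tRNA than to an mRNA, and the other 6 ranged from listed at 0 to 89.5 FPKM.

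Of the 20 nuclear genes for mitochondrial gene expression, 1 rose with ivermectin (against 1.79% of all genes) and 19 did not pass, and none passed with importazole or between the compounds. At an unadjusted p under 0.05 the counts were 2 with ivermectin, 2 with importazole and 4 between ivermectin and importazole, each from limma. Over all 11337 genes the counts at that unadjusted p were 2349, 1788 and 2150. By adjusted p, 4.31%, 2.26% and 3.42% of all genes were called in either direction in the same comparisons, so a count of 1 or 0 among 20 is near the background. Median log2 changes of the 20 were 0.12 with ivermectin and 0.11 with importazole, and the median difference between ivermectin and importazole was 0.05. All 20 had log2 changes between -0.19 and 0.34 against vehicle.

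**Figure D4:**
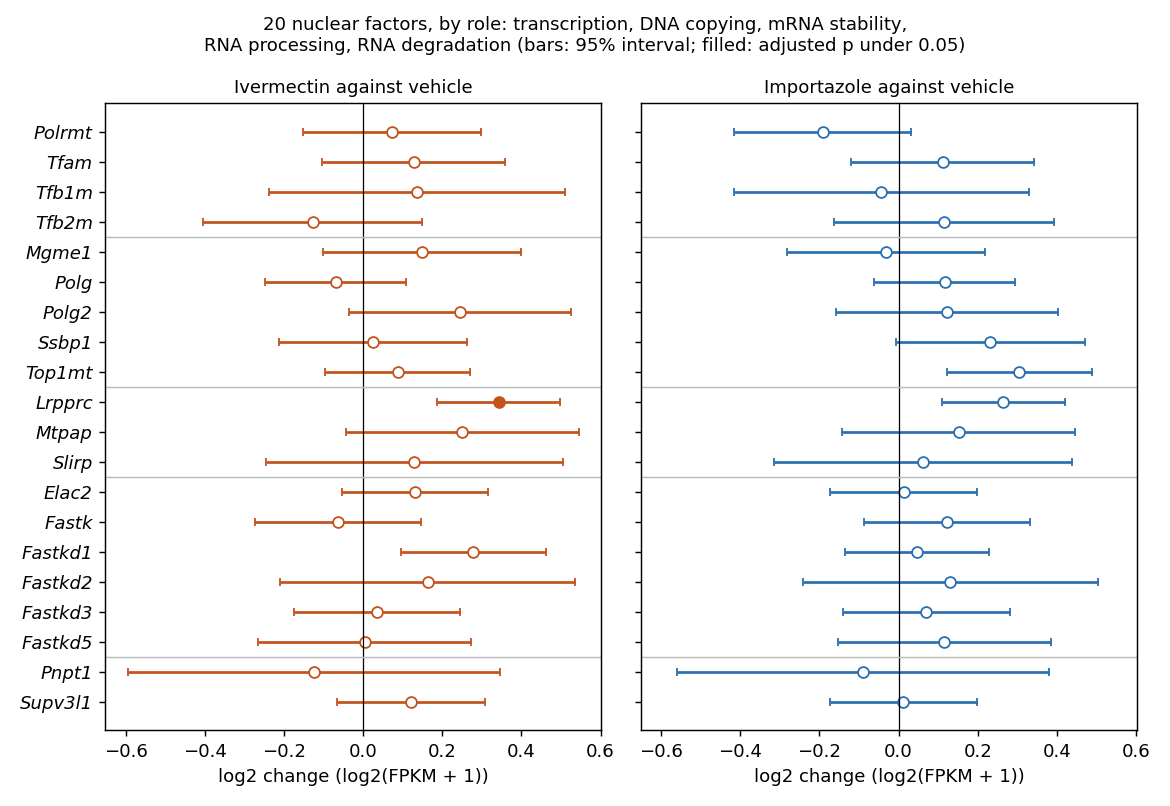
Log2 change, on the log2(FPKM + 1) scale, of the 20 nuclear factors with ivermectin (left) and importazole (right) against vehicle, grouped by role, with 95% intervals from limma; filled points have an adjusted p under 0.05. Lrpprc with ivermectin (0.34) is filled.

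Among the transcription genes none passed in any comparison, and 0, 0 and 1 had an unadjusted limma p under 0.05 with ivermectin, with importazole and between the compounds. Polrmt, the RNA polymerase (chromosome 10, 79736123 to 79746581), had 6.85, 8.74 and 6.65 FPKM in ivermectin libraries and 5.96, 6.199 and 5.73 FPKM in importazole libraries, against 7.04, 7.40 and 6.44 FPKM in vehicle libraries. Importazole libraries were the lowest 3, but the log2 change of -0.19, with a 95% interval of -0.42 to 0.03, did not pass (limma adjusted p = 0.397), nor did the difference between ivermectin and importazole of 0.26 (limma adjusted p = 0.186). Tfam, which packs mitochondrial DNA and opens its promoters (chromosome 10, 71225464 to 71238280), had 12.6, 17.3 and 15.0 FPKM in ivermectin libraries and 15.7, 14.6 and 13.7 FPKM in importazole libraries, against 12.7, 13.7 and 14.0 FPKM in vehicle libraries. The groups overlapped, and the 95% intervals of the log2 change were -0.10 to 0.36 with ivermectin and -0.12 to 0.34 with importazole. Tfb2m, the initiation partner of the polymerase, had 6.55, 6.35 and 6.83 FPKM in ivermectin libraries and 7.31, 8.65 and 7.99 FPKM in importazole libraries, against 9.20, 7.003 and 5.95 FPKM in vehicle libraries. The vehicle libraries spanned more than the range of both compounds (limma adjusted p = 0.610 with ivermectin and 0.715 with importazole). Tfb1m, a methyltransferase for the small-subunit rRNA, had 4.65, 6.68 and 7.20 FPKM in ivermectin libraries and 5.60, 6.01 and 4.29 FPKM in importazole libraries, against 5.31, 4.47 and 6.77 FPKM in vehicle libraries. Its groups overlapped throughout.

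Lrpprc, which binds mitochondrial mRNAs and keeps them stable (chromosome 17, 84705247 to 84790789), was the nuclear factor that passed. It had 28.3, 26.6 and 25.9 FPKM in ivermectin libraries and 25.2, 24.1 and 27.1 FPKM in importazole libraries, against 19.9, 21.6 and 21.6 FPKM in vehicle libraries. All 6 libraries of the compounds lay above all 3 of vehicle. The log2 change was 0.34 ± 0.07 with ivermectin (SE, n = 3; limma adjusted p = 0.0210), a call that ended without vehicle 1 or 2 or ivermectin 1 or 2, with adjusted p up to 0.0792 over all alternatives. With importazole it was 0.27 (limma adjusted p = 0.0893), and between the compounds 0.08 with a 95% interval of -0.08 to 0.23. Slirp, its binding partner, had 33.3, 29.3 and 45.8 FPKM in ivermectin libraries and 41.4, 28.6 and 32.7 FPKM in importazole libraries, against 32.2, 37.3 and 28.2 FPKM in vehicle libraries. Slirp groups overlapped, and its log2 change was 0.13 with ivermectin and 0.06 with importazole (limma adjusted p = 0.711 and 0.901). The poly(A) polymerase Mtpap averaged 5.26 ± 0.826 FPKM in ivermectin libraries and 4.85 ± 0.750 FPKM in importazole libraries, against 4.26 ± 0.634 FPKM in vehicle libraries (SD, n = 3 each), and did not pass.

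None of the 5 DNA-copying genes passed, and 0, 1 and 2 had an unadjusted limma p under 0.05 in the same comparisons. They comprise Polg and Polg2, the catalytic and accessory subunits of the mitochondrial DNA polymerase, the single-strand binding protein Ssbp1, the nuclease Mgme1 and the topoisomerase Top1mt. Top1mt came nearest, at 8.68 ± 0.717 FPKM in ivermectin libraries and 10.2 ± 0.774 FPKM in importazole libraries, against 8.09 ± 0.152 FPKM in vehicle libraries (SD, n = 3 each). Its importazole libraries lay above all vehicle libraries, with a log2 change of 0.30 (limma adjusted p = 0.0962). Log2 changes of the other 4 lay between -0.07 and 0.25 against vehicle.

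None of the 6 RNA processing genes passed, and their log2 changes lay between -0.06 and 0.28 with ivermectin and between 0.01 and 0.13 with importazole. At an unadjusted limma p under 0.05 there was 1 with ivermectin, 0 with importazole and 1 between the compounds. Elac2 cuts the 3′ ends of mitochondrial tRNAs, and the Fastk family binds mitochondrial RNAs, with Fastkd2 acting on the large-subunit rRNA and Fastk on mt-Nd6. Fastkd1 averaged 6.22 ± 0.610 FPKM in ivermectin libraries and 5.13 ± 0.172 FPKM in importazole libraries, against 4.93 ± 0.0406 FPKM in vehicle libraries (SD, n = 3 each), with ivermectin above vehicle in every library. That difference did not pass (log2 change 0.28, limma adjusted p = 0.0933). Supv3l1 and Pnpt1, the helicase and exonuclease that degrade mitochondrial RNA, had log2 changes of 0.12 and -0.12 with ivermectin and of 0.01 and -0.09 with importazole. The exons of 6 nuclear factors, Tfb1m, Polg, Mgme1, Slirp, Fastk and Elac2, overlap those of another tested gene on the opposite strand. No source used here says whether strand was used in the quantification, so these values are uncertain.

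Set side by side, the encoded transcripts stood lower against the nuclear factors in importazole cells than in vehicle cells. The mean log2(FPKM + 1) of the 13 mRNAs exceeded that of the 20 nuclear factors by 5.95, 6.02 and 6.08 in ivermectin libraries and by 5.42, 5.50 and 5.56 in importazole libraries, against 6.01, 5.96 and 6.08 in vehicle libraries. Importazole libraries lay below all others, and ivermectin and vehicle overlapped. All 37 encoded genes held 4.12%, 4.53% and 4.77% of summed FPKM (leaving out Yam1) in ivermectin libraries and 2.86%, 2.81% and 3.09% in importazole libraries, against 3.93%, 3.80% and 4.32% in vehicle libraries. The 13 mRNAs summed to 13749 ± 1590 FPKM in ivermectin libraries and 9402 ± 613 FPKM in importazole libraries, against 12613 ± 630.3 FPKM in vehicle libraries (SD, n = 3 each). Ivermectin 3, 1 of the libraries with Yam1 at 0, was the highest of all.

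**Figure D5:**
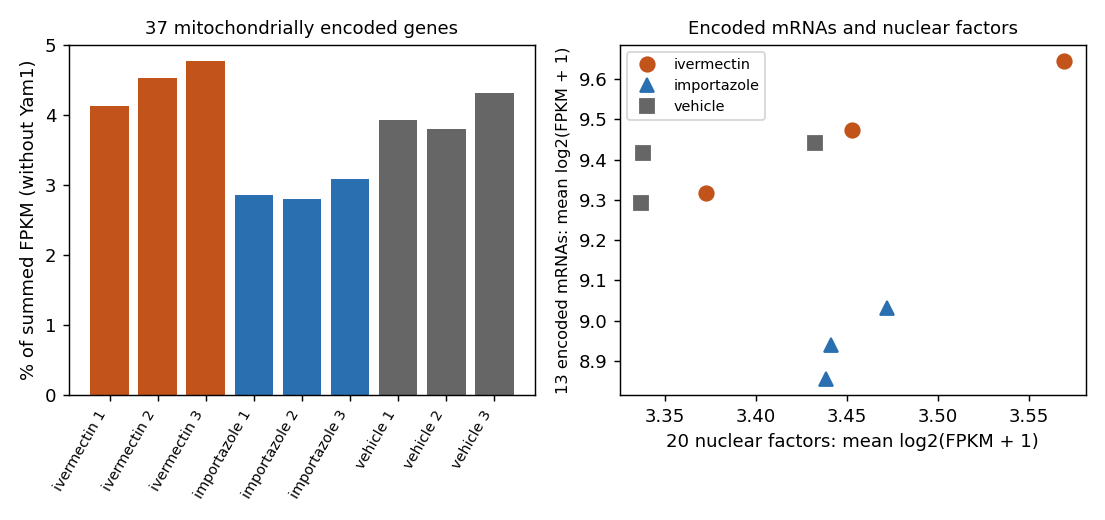
Left, share of summed FPKM (without Yam1) held by the 37 encoded genes in each library, lowest in importazole at 2.81% to 3.09%. Right, mean log2(FPKM + 1) of the 13 encoded mRNAs against that of the 20 nuclear factors, 1 point per library; the importazole points lie low on the vertical axis and within the range of the others on the horizontal.

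Other genes of the pathway, were taken from 5 lists, and their counts are to be read against the shares of all genes called (1.79% higher and 2.52% lower with ivermectin, 1.69% and 0.565% with importazole, 0.714% and 2.71% between ivermectin and importazole). Of 32 other factors of mitochondrial DNA copying and gene expression 1 rose with ivermectin, and none passed with importazole or between the compounds. At an unadjusted limma p under 0.05 there were 8 with ivermectin, 6 with importazole and 2 between the compounds. Of all 11337 genes these counts were 2349, 1788 and 2150. The gene called was Tefm, the elongation factor of the mitochondrial RNA polymerase, with 8.16, 7.39 and 8.70 FPKM in ivermectin libraries and 8.49, 7.52 and 7.39 FPKM in importazole libraries, against 4.85, 6.14 and 5.85 FPKM in vehicle libraries. All libraries of both compounds lay above vehicle. The log2 change was 0.46 with ivermectin (limma adjusted p = 0.0260; lost without vehicle 1 or 3 or ivermectin 1 or 3) and 0.42 with importazole (limma adjusted p = 0.0606; 0.0480 with a filter of 5 FPKM).

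Of 7 genes for mitochondrial nucleotide supply, Slc25a33, the carrier that brings pyrimidine nucleotides into mitochondria, passed in every comparison and the other 6 in none. It had 14.1, 15.0 and 15.7 FPKM in ivermectin libraries and 10.0, 9.85 and 9.07 FPKM in importazole libraries, against 5.77, 6.33 and 5.54 FPKM in vehicle libraries. The 3 groups stood apart, with vehicle lowest. The log2 change was 1.21 ± 0.08 with ivermectin and 0.63 ± 0.08 with importazole (SE, n = 3; limma adjusted p = 1.03e-05 and 0.00171), and the difference between ivermectin and importazole was 0.58 (limma adjusted p = 0.00206). These calls held under all alternatives tried.

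Among 81 nuclear-encoded subunits of the respiratory complexes 1 rose with either compound, a count near the share of all genes. It was Cox6a2, the muscle form of a complex IV subunit. It had 118, 141 and 135 FPKM in ivermectin libraries and 119.7, 122 and 101 FPKM in importazole libraries, against 52.4, 49.6 and 48.6 FPKM in vehicle libraries. Every library of both compounds lay above the vehicle libraries. The log2 change was 1.37 with ivermectin and 1.17 with importazole (limma adjusted p = 1.03e-05 and 5.33e-05). The median over the 81 was 0.06 with ivermectin and 0.02 with importazole, against 0.01 and 0.04 over all genes. Ndufa10 of complex I was higher with ivermectin than with importazole (161 ± 14.4 and 130.5 ± 5.49 FPKM, SD, n = 3 each; limma adjusted p = 0.0467), a call lost on the omission of any library.

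Of 77 mitochondrial ribosomal protein genes, none passed with ivermectin (15 at an unadjusted limma p under 0.05, against 2349 of all 11337 genes), 1 fell with importazole and 1 differed between the compounds, counts near the shares of all genes. Mrpl16 had 11.8, 13.4 and 12.7 FPKM in ivermectin libraries and 10.97, 11.3 and 10.3 FPKM in importazole libraries, against 14.9, 14.5 and 16.04 FPKM in vehicle libraries. Its importazole libraries were the lowest 3, with a log2 change of -0.44 (limma adjusted p = 0.0116; lost without vehicle 3 or importazole 1 or 3, with adjusted p up to 0.0569). Mrpl13 was higher with ivermectin than with importazole (52.4 ± 6.23 and 41.0 ± 0.209 FPKM, SD, n = 3 each; limma adjusted p = 0.0459), a call that held only without ivermectin 1 among the omissions of a library. Of 11 upstream regulators of mitochondrial genes none passed, with 1, 1 and 0 at an unadjusted limma p under 0.05 in the 3 comparisons.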

How the data were processed

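Poly(A) RNA of 9 HL-1 libraries was sequenced on the Ion Proton system, per the labels' protocols. The deposited files give FPKM per gene symbol as computed by the authors, per the file headers. Per the submitters' processing notes, tools included Bowtie, Bowtie2, STAR and Cufflinks (no versions or roles) and builds were mm10 and GRCm38. No source used here gives the annotation, strand use or filters. FPKM is a share of a library's mapped fragments, so an abundant RNA missing from a library raises the others, and log2 folds understate changes of low genes.

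Repeated symbols were summed. The 11337 genes that reached 1 FPKM in 3 or more libraries were fitted as log2(FPKM + 1) in all 9 libraries with group as the only term (limma 3.58.1 in R 4.3.3, trend and robust moderation). Tests were two-sided, with Benjamini-Hochberg adjustment over all genes and a threshold of 0.05. A single gene's exact permutation test of 3 against 3 libraries cannot go below p = 0.1. The procedure was tested on simulated data.

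Groups and replicate numbers came from the labels. Same-numbered libraries of different groups correlated between -0.21 and 0.14 in their deviations from group means, above 0.1 in 1 of 9 pairs, so the numbers were not treated as pairing the libraries.

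Members and lists were chosen with earlier results of these data known. Values in every library are given for members called in any comparison, mt-Cytb, mt-Atp6, mt-Nd3, the transcription genes, Lrpprc and Slirp. Of other lists, up to 4 called members with the smallest p were named per comparison. mt-Co3, mt-Nd1 and the ratios within libraries, like the nuclear factors nearest the threshold, were described in full after their values were seen. Loci and sequences are from GENCODE M21. Python 3.11.15 and matplotlib 3.10.9 drew the figures.

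Alternatives tried were no filter, a filter of 5 FPKM, a pseudocount of 0.1 or 0.5, quantile normalization, median-of-ratios scaling, an equal sum over nuclear genes, the replicate number as a block, a fit to the 6 libraries of a comparison, plain limma, a threshold of 0.01, and leaving out each library or both with Yam1 at 0. DESeq2 was not run, as the files hold no counts.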

Additional observations from a re-analysis of the deposited data

How the results depend on the processing

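Depth is unknown, so counting error could not be set beside any value. The importazole calls of mt-Cytb, mt-Atp6, Slc25a33 and Cox6a2 held under all alternatives. With importazole, 2 encoded genes were lower without a filter, 4 in plain limma and 2 at a threshold of 0.01, in place of 7, and 2 to 10 when a library was left out. The median log2 change of encoded genes was -0.23 without a filter, which adds tRNAs near 0, in place of -0.40. It lay between -0.42 and -0.37 with a library left out.

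With ivermectin, 0 encoded genes passed with a pseudocount of 0.1, without a filter, in the fit to 6 libraries, in plain limma, at 0.01, and without the pair of libraries with Yam1 at 0, in place of 1. Leaving out a library gave 0 to 1. The 1, without vehicle 3, was mt-Rnr1 (limma adjusted p = 0.0340) and not mt-Nd3. The median of encoded genes was 0.16, and 0.0087 without both those libraries (0.031 to 0.25 with 1 library left out, lowest without ivermectin 3). For nuclear factors 0 passed without a filter, in the fit to 6 libraries, at 0.01 and without both libraries, in place of 1, and 0 to 1 with a library left out.

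Between ivermectin and importazole, 6 encoded genes passed without a filter and 5 at 0.01, in place of 13, and 6 to 13 with a library left out. Their median was 0.49 without a filter and 0.49 without both libraries with Yam1 at 0, in place of 0.61 (0.49 to 0.63 with a library left out).

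Over all genes, calls with ivermectin numbered 211 without a filter, 274 in the fit to 6 libraries, 173 at 0.01 and 190 without both libraries, in place of 489 (243 to 398 with a library left out). Calls with importazole numbered 133, 108 at 0.01 and 161 without both, in place of 256 (127 to 319). Between the compounds they numbered 177 without a filter, 150 at 0.01 and 231 without both, in place of 388 (176 to 396). The cause of these differences was not tested.

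With the replicate number as a block, 0 encoded genes and 0 nuclear factors passed with ivermectin, 5 encoded genes were lower with importazole, and 12 encoded genes passed between the compounds, where calls over all genes fell to 257. The check made gave no ground for pairing the libraries by number, but with 3 libraries a group it cannot exclude a pairing. The reason for the lower counts was not tested. Of single genes under the alternatives, 2782 values kept their side of the threshold and direction, 167 lost their call and 23 gained one. The 2782 include genes with no call in the main fit, while the 167 come only from genes called there. These counts therefore do not give the share of calls lost. Another 94 changed direction with no call before or after, and 0 changed direction with a call before or after.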
